A study of Zea mays with 50 samples.

Results

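In maize leaf protoplasts, 23 of 30213 measured rows stood higher than in GFP cells whether the cells expressed the MYB regulator MYB131 or the NAC regulator NAC29. The rows were selected on these values: log2(RPKM + 0.5) at least 1 above the GFP library of the same protoplast preparation (prep) in all 4 of the MYB131 and NAC29 libraries, and at least 2 RPKM in each of them. RPKM is a read number scaled by row length and library size, so levels can be set side by side between genes. The MYB131 criteria alone were met by 442 rows and the NAC29 criteria alone by 224. All 4 rises were found in 35 rows, and 23 of these reached 2 RPKM in all 4 libraries. A mirror-image rule found 1 row that fell by at least 1 in all 4.

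The study tested 23 candidate regulators of reproductive phasiRNAs, small RNAs made in phased steps from long precursors in anthers, by making leaf cells express them. Each regulator had 2 polyadenylated-RNA libraries from separate preps and each prep had 1 GFP library, giving 50 libraries from 4 preps. All cells were of inbred B73, the reference maize line, and came from leaves of over 10 seedlings per prep, aged 10 to 12 days and kept in darkness at 25 °C. Expression was ectopic, in leaf cells rather than anthers. Regulators carried GFP at the N-terminus, except ZFL2 with GFP at the C-terminus, and the control cells expressed GFP alone; all used the 35S promoter, a viral promoter active in most plant cells. NAC29 was expressed in preps 1 and 3 and MYB131 in preps 2 and 4, so these regulators share no prep and no GFP library. The other 21 regulators gave 42 libraries that played no part in choosing the genes, 20 in preps 1 and 3 and 22 in preps 2 and 4.

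MYB and NAC proteins form large families of plant transcription factors. Members of both switch on genes for secondary walls, stress responses and the differentiation of flower parts, and in anthers some act in the tapetum, the cell layer that feeds pollen. Of the hormones met here, ethylene is made from its precursor ACC by ACC oxidases and acts through transcription factors of the EREB (ethylene-responsive element binding) type. Jasmonate acts by removing JAZ proteins, which repress its target genes and are themselves usually induced by the hormone.

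Depth was 6830505 to 11875644 reads in 48 libraries, and the EREB69 libraries held 28153231 and 29950351. The label of leaf cells was checked against known markers, as means over the 50 libraries. The C4 enzyme gene ppdk1 stood at 173 RPKM and mdh6 at 24.05 RPKM, while pep1, for the first carboxylase of C4 leaves, stood at 0.392 RPKM. The light-harvesting genes lhcb3, lhcb4 and lhcb6 also averaged under 1 RPKM, and lhcb7 stood at 18.0 RPKM. Among bundle sheath genes pck2 stood at 479.5 RPKM and the other 3 at 5.63 to 18.3 RPKM. In the epidermal list ocl1 stood at 16.0 RPKM, gl8b at 5.45 RPKM and 1 fdh1 row at 26.7 RPKM, with gl1 and the other fdh1 row under 1 RPKM. The 1 anther and tapetum marker found, ms32, stood at 17.2 RPKM and ran from 13.9 to 21.9 RPKM over the libraries. In the vascular and xylem list Laccase-7 stood at 930 RPKM, the cellulose synthase gene cesa10 at 15.9 RPKM and sut1 at 2.16 RPKM. CesA12 and 2 of the 3 Laccase-13 rows were under 1 RPKM. The remaining Laccase-13 row averaged 3.55 RPKM, but stood at 103 and 53.4 RPKM in the MYB131 libraries and at 0.141 to 0.896 RPKM in GFP. In bulk RNA, fewer cells of a type and less RNA per cell cannot be told apart. Rows for MYB131 and NAC29 themselves could not be looked up by name and are not analysed here.

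RefSeq's maize annotation matched 13 of the 23 rows, named 2 of them and placed no 2 of them next to each other. The named genes were acco20 (GRMZM2G126732), an ACC oxidase gene, and JAZ9 (GRMZM2G145407, also TIFY13), for a jasmonate-signalling repressor. The other 21 rows are given by their identifiers, with no role.

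The gene acco20 is the ethylene-synthesis member. It stood at 27.1 and 14.4 RPKM in the MYB131 libraries of preps 2 and 4, against 6.54 and 4.41 RPKM in GFP cells of those preps. In NAC29 cells of preps 1 and 3 it stood at 7.86 and 8.35 RPKM, against 2.02 and 2.40 RPKM. MYB131 and NAC29 libraries were thus each above their own controls, while the NAC29 levels were close to the GFP level of prep 2. Its mean rise was 1.79 on the log2 scale in MYB131 and 1.67 in NAC29. The 42 unused libraries ran from 2.24 to 4.98 RPKM (median 3.35) in preps 1 and 3 and from 3.92 to 10.2 RPKM (median 6.26) in preps 2 and 4. All 4 chosen libraries lay above every unused library of their own preps.

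The jasmonate repressor gene JAZ9 was the more variable of the named genes. It stood at 6.64 and 2.18 RPKM in MYB131 cells of preps 2 and 4, against 0.987 and 0.687 RPKM in GFP. In NAC29 cells it stood at 3.86 and 8.63 RPKM in preps 1 and 3, against 1.44 and 0.501 RPKM. The log2 rise ran from 1.17 in prep 1 to 3.19 in prep 3, and depth behind it was thin, with 15 to 74 reads in the 4 chosen libraries and 4 to 9 in GFP. The MYB131 library of prep 4 was passed by 1 unused library, ZFL1 of prep 4, at 3.02 RPKM. The remaining unused libraries of preps 2 and 4 were below it, and those of preps 1 and 3 reached 1.79 RPKM at most, below both NAC29 libraries.

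**Figure D1:**
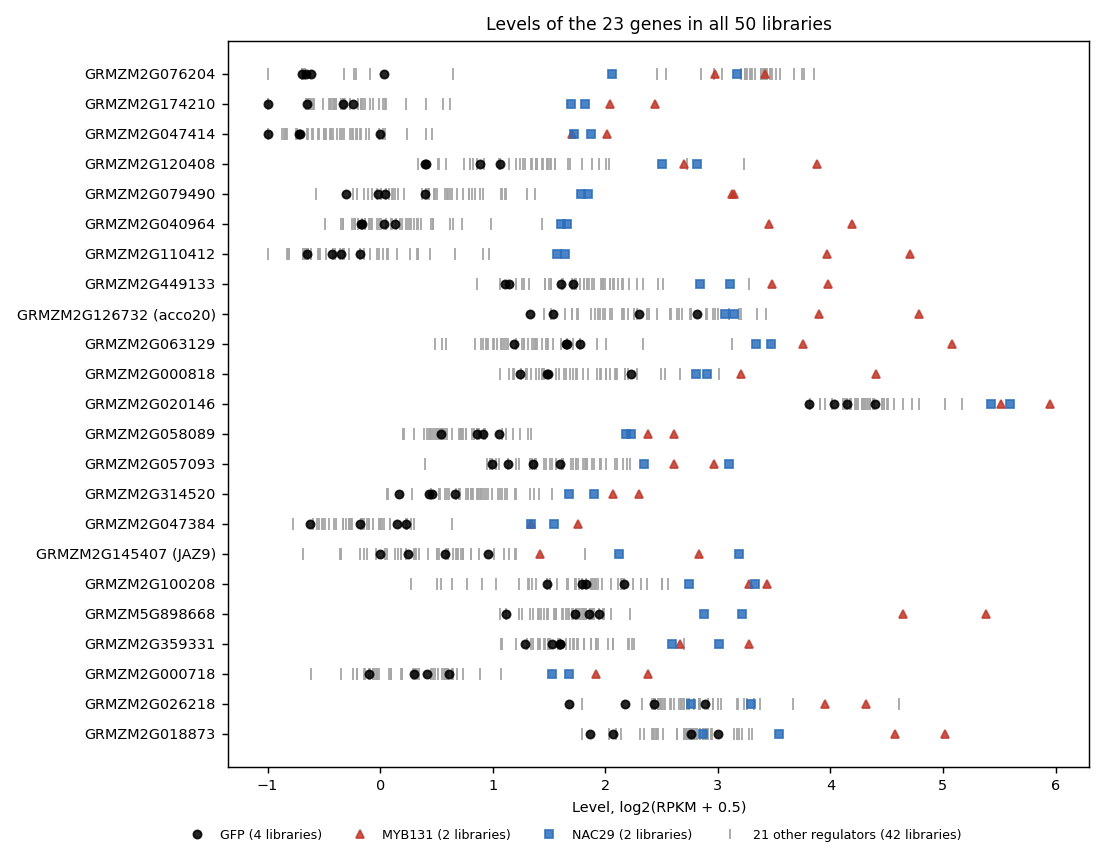
Level of each of the 23 genes, as log2(RPKM + 0.5), in every library: black circles are GFP, red triangles MYB131, blue squares NAC29 and grey ticks the 42 libraries of the other regulators. Genes are in the order of the lowest of their 4 rises, and in 17 of them the MYB131 and NAC29 libraries all lay above every grey tick of the same preps. The share of all rows doing so was not counted.

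Ordered by the lowest of their 4 rises, the members ran from 2.68 for GRMZM2G076204 to 1.01 for GRMZM2G018873. The member with the highest minimum, GRMZM2G076204, behaved unlike the rest. It stood at 7.34 and 10.2 RPKM in MYB131 cells and at 3.67 and 8.53 RPKM in NAC29 cells, against 0.134, 0.522, 0.152 and 0.119 RPKM in GFP cells of preps 2, 4, 1 and 3. The GFP values rest on 1, 4, 1 and 1 reads. Its levels over the 50 libraries fell into separate ranges, 0 to 1.07 RPKM in 15 libraries and 3.67 to 14.0 RPKM in 35, with none between. The low range held all 4 GFP libraries, both OFP9 and both WRKY81 libraries.

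For TCP23, ZFL2, NAC119, bHLH97, ABI5, GBP15 and ZHD4, 1 library lay in each range. In TCP23 cells GRMZM2G076204 was at 9.93 RPKM in prep 1 and 0.116 RPKM in prep 3, and in ZFL2 cells at 0.117 RPKM in prep 1 and 10.04 RPKM in prep 3. Of the 42 unused libraries, 31 were in the high range and 11 in the low. A high level of this gene was the more frequent state among the unused regulators. Each GFP library was in the low range, but the rule chose the gene for GFP levels below the MYB131 and NAC29 levels. The low place of GFP is therefore a part of the choice and no separate result. The limma fit, which takes the spread between libraries from all groups, gave rises of 3.51 ± 1.33 (SE) in MYB131 and 3.27 ± 1.33 in NAC29 and called neither. Against the mean of the other regulators of the same preps the difference was 1.21 ± 0.99 in MYB131 and −0.12 ± 0.99 in NAC29. Measured from the median of the unused libraries of those preps, it was −0.07 in MYB131 and −0.66 in NAC29. Which library condition goes with the low range was not tested. Over the 50 libraries the row with the most similar log2 pattern, GRMZM2G134072, correlated with it at Pearson's r of 0.486, a description over libraries that share preps.

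**Figure D2:**
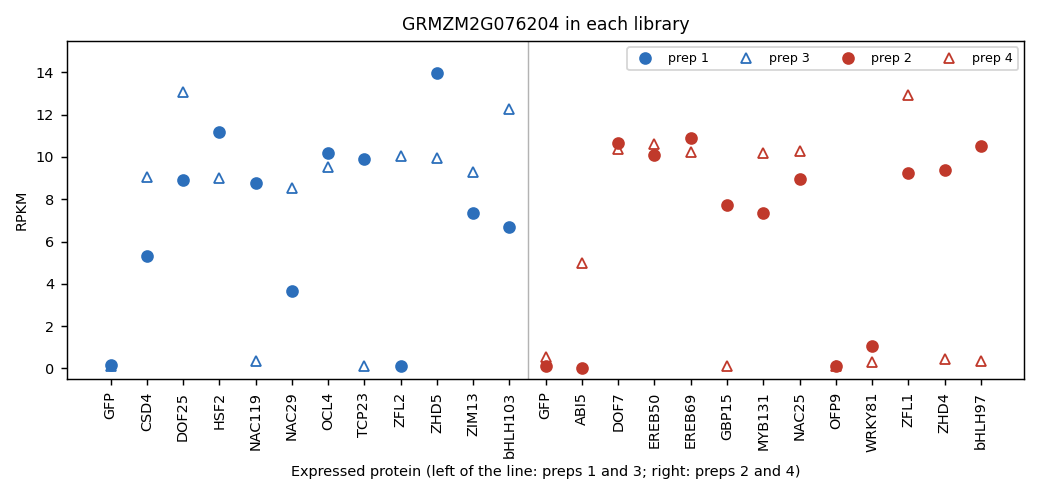
RPKM of GRMZM2G076204 in each of the 50 libraries by expressed protein, circles for preps 1 and 2 and triangles for preps 3 and 4. Points lie either at 0 to 1.07 RPKM (15 libraries, with all 4 GFP) or at 3.67 to 14.0 RPKM (35 libraries), and 7 regulators have a point in each range. The rule chose the gene for GFP levels below those of MYB131 and NAC29.

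The next members were near silent outside the chosen libraries. GRMZM2G174210 stood at 4.94 and 3.61 RPKM in MYB131 and 2.74 and 3.03 RPKM in NAC29, and at 0 to 0.346 RPKM in the 4 GFP libraries, which held 0 to 2 reads. Among the unused libraries it reached at most 1.03 RPKM, in WRKY81 of prep 4. GRMZM2G047414 stood at 3.55 and 2.76 RPKM in MYB131 and 3.15 and 2.81 RPKM in NAC29, and at 0 to 0.497 RPKM in GFP. No unused library passed 0.873 RPKM for it, so its 4 chosen libraries stood apart from all others.

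In the GFP libraries GRMZM2G120408 held 14 to 31 reads and GRMZM2G079490 held 4 to 12. GRMZM2G120408 stood at 14.3 and 5.99 RPKM in MYB131 against 1.597 and 1.35 RPKM in GFP, and at 5.16 and 6.52 RPKM in NAC29 against 0.819 and 0.824 RPKM. Its unused libraries did not stay below: both EREB69 libraries, at 8.89 and 6.13 RPKM, were above the MYB131 library of prep 4. GRMZM2G079490 stood at 8.22 and 8.36 RPKM in MYB131 against 0.819 and 0.532 RPKM, and at 3.09 and 2.93 RPKM in NAC29 against 0.310 and 0.485 RPKM. Its unused libraries ran up to 2.09 RPKM in preps 1 and 3 and 1.66 RPKM in preps 2 and 4, below the chosen libraries.

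A further set rose much more with MYB131 than with NAC29. GRMZM2G110412 stood at 25.6 and 15.2 RPKM in MYB131 against 0.285 and 0.139 RPKM in GFP, the largest mean rise of the 23 at 4.84. In NAC29 cells it stood at 2.63 and 2.48 RPKM against 0.243 and 0.381 RPKM, a mean rise of 1.92. GRMZM2G040964 stood at 17.8 and 10.5 RPKM in MYB131 against 0.523 and 0.594 RPKM, and at 2.55 and 2.67 RPKM in NAC29 against 0.396 and 0.387 RPKM. Both regulators' libraries lay above all unused libraries of their preps for these genes, and the MYB131 levels lay well above the NAC29 levels.

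GRMZM2G063129 stood at 33.4 and 13.02 RPKM in MYB131 against 1.78 and 2.65 RPKM in GFP, and at 10.6 and 9.61 RPKM in NAC29 against 2.66 and 2.92 RPKM. GRMZM5G898668, named because of this difference after its values were seen, stood at 41.2 and 24.5 RPKM in MYB131 against 3.12 and 1.68 RPKM, and at 6.87 and 8.76 RPKM in NAC29 against 2.82 and 3.34 RPKM. With GRMZM2G110412 and GRMZM2G040964 these were the 4 genes whose mean rises differed by at least 1 between the regulators, in each case with the larger rise in MYB131. Of the members with smaller differences, GRMZM2G449133 stood at 15.3 and 10.7 RPKM in MYB131 against 2.54 and 2.77 RPKM, and at 6.68 and 8.14 RPKM in NAC29 against 1.66 and 1.71 RPKM.

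Over all 23 genes the mean log2 rise was 1.31 to 4.84 (median 1.94) in MYB131 and 1.10 to 3.27 (median 1.66) in NAC29. It was larger in MYB131 for 20 genes and larger in NAC29 for 3, which were GRMZM2G020146, GRMZM2G057093 and JAZ9. The regulators were expressed in different preps, so regulator and prep cannot be told apart in this difference, and it was not tested. The MYB131 level was higher in prep 2 than in prep 4 for 20 genes, and the NAC29 level higher in prep 3 than in prep 1 for 13. The shares of all rows with these directions were not counted. The most abundant member was GRMZM2G020146, with 61.5 and 45.2 RPKM in MYB131, 42.5 and 47.9 RPKM in NAC29 and 13.5 to 20.6 RPKM in GFP. The 7 members not given singly (GRMZM2G000818, GRMZM2G058089, GRMZM2G057093, GRMZM2G314520, GRMZM2G047384, GRMZM2G100208 and GRMZM2G359331) stood at 2.02 to 20.7 RPKM in the chosen libraries and 0.148 to 4.20 RPKM in GFP. In control cells 10 genes averaged under 1 RPKM over the 4 GFP libraries, 11 between 1 and 5 RPKM and 2 at 5 RPKM or more.

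**Figure D3:**
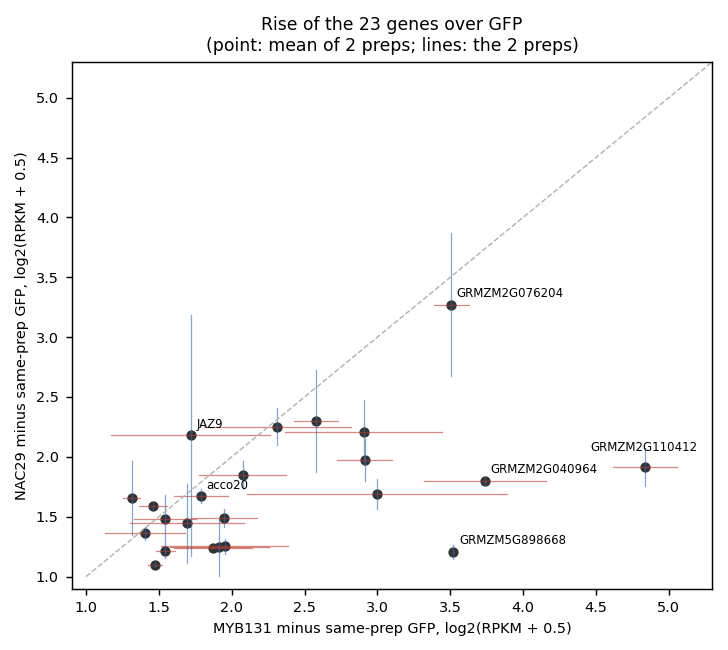
Mean rise over same-prep GFP of each of the 23 genes on the log2(RPKM + 0.5) scale, MYB131 on the horizontal and NAC29 on the vertical axis, with red and blue lines spanning the 2 preps. Most points (20 of 23) lie below the dashed line of equal rise, and the rule places every point above 1 on both axes.

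At the threshold, the last members inside were GRMZM2G000718 with a lowest rise of 1.11, GRMZM2G026218 with 1.08 and GRMZM2G018873 with 1.01. The first rows outside were GRMZM2G028353 with 0.99, GRMZM2G302913 with 0.95 and GRMZM5G828396 with 0.93. GRMZM2G018873 stood at 31.9 and 23.3 RPKM in MYB131 against 6.30 and 7.49 RPKM, and at 6.82 and 11.2 RPKM in NAC29 against 3.14 and 3.69 RPKM. GRMZM2G026218 stood at 19.4 and 15.01 RPKM in MYB131 against 6.91 and 4.897 RPKM, and at 6.27 and 9.34 RPKM in NAC29 against 2.70 and 4.03 RPKM, and GRMZM2G000718 at 2.39 to 4.72 RPKM in the 4 chosen libraries against 0.435 to 1.03 RPKM.

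Outside the threshold, GRMZM2G028353 had MYB131 levels of 14.6 and 7.20 RPKM against 1.53 and 1.36 RPKM, and NAC29 levels of 2.82 and 3.67 RPKM against 1.17 and 1.45 RPKM. GRMZM2G302913 stood at 9.49 and 10.8 RPKM in MYB131 against 4.34 and 3.48 RPKM, and at 7.45 and 8.19 RPKM in NAC29 against 3.52 and 4.003 RPKM. GRMZM5G828396 stood at 5.74 and 4.48 RPKM in MYB131 against 1.81 and 2.12 RPKM, and at 7.65 and 10.9 RPKM in NAC29 against 1.72 and 2.63 RPKM. In each of these rows the chosen libraries were above their controls, as in the members just inside. The gene of the lignin regulator myb31 (GRMZM2G050305) also fell just outside, with a lowest rise of 0.90.

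The limma fit across all rows is given for these genes as a description, since the same libraries chose them. Calls needed a log2 change of 1 or more in either direction and an adjusted p (Benjamini-Hochberg) below 0.05. Limma called 21 of the 23 higher in MYB131, where 2.21% of the 28122 tested rows were called higher, and 21 higher in NAC29, where the share was 0.868%. The same 21 genes were called in both, and the exceptions were GRMZM2G076204 and GRMZM2G100208. With 1 library left out, 15 to 20 of the 21 stayed called in MYB131, the fewest without MYB131 replicate 2, and 8 to 13 in NAC29, the fewest without NAC29 replicate 3. Called higher for both regulators were 48 rows, or 0.171% of those tested, and 27 of them were not among the 23. The 27 did not meet every criterion of the rule, and include the cellulose synthase gene CesA-7 (GRMZM2G025231), the ethylene-responsive factor gene EREB85 (GRMZM2G124524) and GRMZM2G348602. Annotation places GRMZM2G348602 in the same RefSeq locus as the member GRMZM2G047414, and it stood at 3.01 and 2.61 RPKM in MYB131, 2.14 and 1.80 RPKM in NAC29 and 0 to 0.309 RPKM in GFP.

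Levels were also set against the unused libraries of the same preps. The MYB131 and NAC29 levels were still chosen for being high, so these counts are a description. For 18 genes both MYB131 libraries lay above every unused library, for 20 both NAC29 libraries did, and for 17 both did. The share of all rows with such a separation was not counted, so how unusual these counts are is not known. Measured from the unused median rather than from GFP, the mean log2 level was at least 1 higher in MYB131 for 21 genes, in NAC29 for 19 and in both for 18. Apart from GRMZM2G076204, the median of the unused libraries lay between −0.29 and 0.61 from GFP on the log2 scale. A level of at least 1 RPKM in 2 or more unused libraries was found for 20 genes, beside 27647 of all 30213 rows. Most were thus also detected in other cells, as were most rows. When the unused median replaced GFP in the rule, 22 rows qualified, of which 15 were among the 23. The 8 genes lost were GRMZM2G076204, GRMZM2G057093, GRMZM2G314520, JAZ9, GRMZM2G100208, GRMZM2G359331, GRMZM2G026218 and GRMZM2G018873.

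Whether any other regulator moved these genes was tested in the 42 unused libraries, each regulator against the mean of the other unused regulators of its preps. Limma called 3 of the 23 in at least 1 of the 21 regulators, set against 1.66% of all tested rows. GRMZM2G063129 rose in NAC25 cells, at 8.26 and 4.55 RPKM in preps 2 and 4, where the median of the other regulators was 1.74 and 2.29 RPKM. The log2 difference was 1.41 ± 0.27 (SE) with a limma adjusted p of 0.0126, and both NAC25 libraries lay above all others, which reached 3.52 RPKM. Without NAC25 replicate 2 the difference was 1.01 and the call was lost.

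The other called genes rose in EREB69 cells. GRMZM2G120408 stood at 8.89 and 6.13 RPKM in preps 2 and 4, where the other regulators reached 3.60 RPKM, a log2 difference of 1.62 ± 0.28 with a limma adjusted p of 0.000669. GRMZM2G026218 stood at 23.8 and 12.2 RPKM, where the others reached 9.88 RPKM, a difference of 1.19 ± 0.18 with a limma adjusted p of 0.000144. The EREB69 libraries of preps 2 and 4 were both above every other regulator for these genes. Without EREB69 replicate 2 the differences were 1.37 and 0.72 and neither was called, and EREB69 libraries had the greatest depth of the series, whose part in the result was not tested.

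Among the regulators outside the rule, NAC25 had most of the 23 genes above the others. In its cells 20 of 23 genes were above the other regulators, beside 48.8% of all rows. Their median log2 difference was 0.27 against −0.01 over all rows. In NAC25 14 genes were above the prep medians in both preps, and by the same count 13 were in EREB69, 7 in WRKY81 and 3 in OFP9. The share of all rows was not counted for these. At an unadjusted p below 0.05, 8 genes were higher and 0 lower, beside 4.75% of all rows higher, and 1 gene was called, beside 0.128% of rows. The 8 were GRMZM2G063129, GRMZM2G449133 (0.92 ± 0.27), GRMZM2G100208 (0.84 ± 0.37), GRMZM2G047414 (0.81 ± 0.24), GRMZM2G040964 (0.78 ± 0.19), GRMZM2G047384 (0.65 ± 0.20), GRMZM2G359331 (0.61 ± 0.20) and GRMZM2G058089 (0.47 ± 0.17). For 8 of the 23 genes the highest unused library of preps 2 and 4 was NAC25, for 5 EREB69 and for 4 WRKY81. How often each regulator held the highest library over all rows was not counted. The prep 2 library carried the larger values for several of them: GRMZM2G449133 stood at 9.17 RPKM in prep 2 and 5.03 RPKM in prep 4, and GRMZM2G040964 at 2.22 and 0.885 RPKM. Limma-voom on recovered reads also called GRMZM2G040964 (1.37, adjusted p 0.00702) and GRMZM2G449133 (1.13, adjusted p 0.0138) higher in NAC25.

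Of the 23 genes, 3 (GRMZM2G174210, GRMZM2G047414 and GRMZM2G047384) passed the filter of 1 RPKM in 2 libraries only through the libraries that chose them. With the filter applied to the 42 unused libraries alone, the other 20 genes were tested. In NAC25 17 of these were above the other regulators and 6 were higher at an unadjusted p below 0.05, beside 4.45% of rows. The counts higher were 5 in EREB69, beside 5.51%, and 3 in WRKY81, beside 1.43%, and the 3 genes called by limma were called here too.

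In EREB69 cells 15 of 23 genes were above the other regulators, beside 47.9% of all rows. Of the 23, 5 were higher at an unadjusted p below 0.05 beside 5.57% of all rows, and 2 were called beside 1.33%, with GRMZM2G040964 also called by limma-voom (1.10, adjusted p 0.000653). WRKY81 had 16 genes above, beside 49.3% of all rows, and 4 higher at an unadjusted p below 0.05, beside 1.48% of rows. In its cells GRMZM2G110412 stood at 1.39 and 1.45 RPKM, above the 1.08 RPKM that the others reached, but the difference of 1.08 ± 0.21 missed the limma threshold with an adjusted p of 0.0918, while limma-voom called it (1.86, adjusted p 0.0315). OFP9 leaned the other way, with 6 genes above the other regulators beside 50.6% of all rows, a median difference of −0.23, and 5 genes lower at an unadjusted p below 0.05, beside 3.59% of rows. Among those 5 was GRMZM2G076204. GRMZM2G040964 stood at 0.213 and 0.296 RPKM in OFP9, below the prep medians of 0.716 and 0.672 RPKM. In the 21 regulators limma called 0 of the 23 genes lower, with 15 lower differences at an unadjusted p below 0.05, and limma-voom on recovered reads also called 0 lower. Of all 28122 rows limma called only 2 to 9 lower per regulator, so the 0 says little about these genes. The share of all rows to set beside the 15 is not given here.

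**Figure D4:**
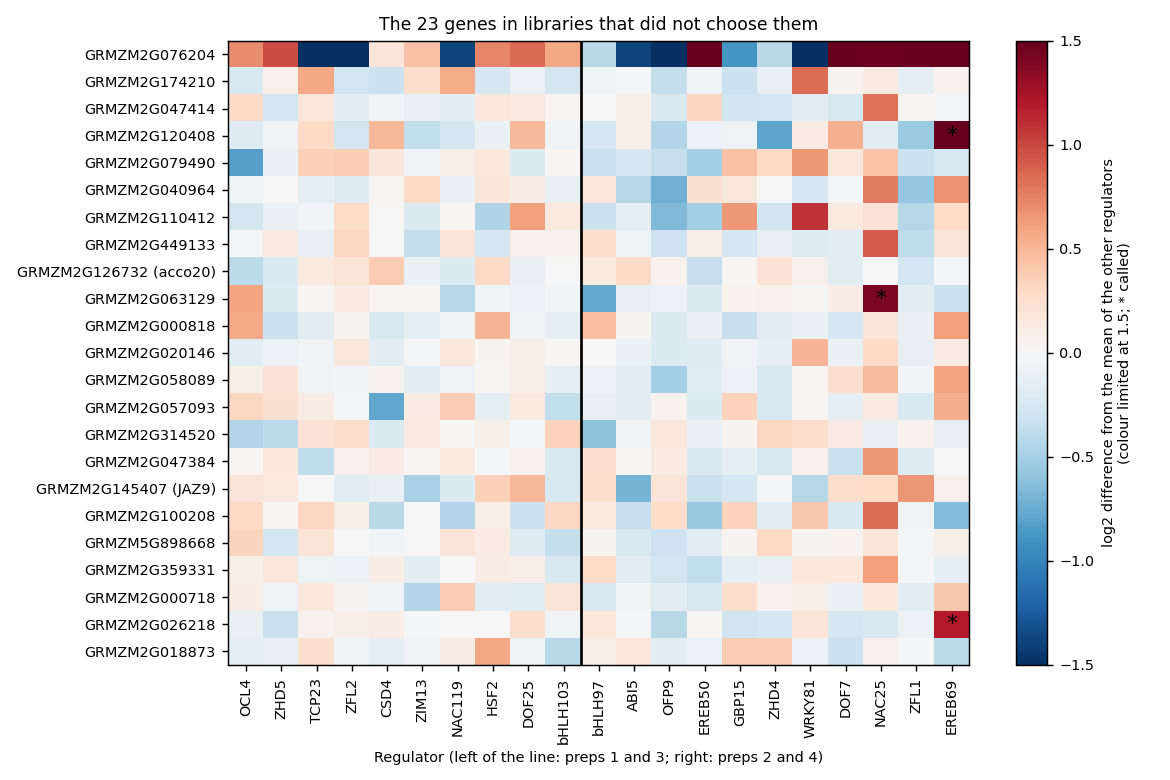
Difference of each of the 23 genes (rows) in each of the 21 unused regulators (columns) from the mean of the other unused regulators of the same preps, on the log2(RPKM + 0.5) scale; red is higher, blue lower, colours stop at 1.5 and asterisks mark limma calls. The NAC25 column is red in 20 of 23 rows, and the 3 calls are GRMZM2G063129 in NAC25 and GRMZM2G120408 and GRMZM2G026218 in EREB69.

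The genes did not vary closely together where they were not chosen. Over the 42 unused libraries, with each prep centred, the median Pearson's r over the 253 pairs of the 23 genes was 0.126, and 3 pairs passed 0.5. The median r of the 23 with other rows was −0.00. The closest pair was GRMZM2G120408 with GRMZM2G026218 at 0.68, and at 0.29 over the 40 libraries without EREB69. These correlations share libraries and preps and are descriptions.

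Preps differed in some of these genes too. Between preps 3 and 1, with each regulator as its own pair in the unused libraries, 3 of the 23 passed an adjusted p below 0.05 in limma, all higher in prep 3, beside 8.63% of all rows. The largest was GRMZM2G120408, at a mean of 1.36 RPKM in prep 1 and 2.44 RPKM in prep 3, a log2 difference of 0.68 ± 0.10, followed by GRMZM2G449133 (0.50 ± 0.13) and GRMZM2G020146 (0.22 ± 0.05). Between preps 4 and 2, 5 of the 23 passed, all lower in prep 4, beside 29.6% of all rows. The ethylene gene acco20 led these, at a mean of 7.97 RPKM in prep 2 and 5.23 RPKM in prep 4 (−0.56 ± 0.07). None of these differences reached 1, so limma called 0 of the 23 between preps 3 and 1, beside 0.153% of rows, and 0 between preps 4 and 2, beside 0.846%. Limma-voom also called 0 in both. At an unadjusted p below 0.05 there were 8 of the 23 between preps 3 and 1, beside 25.2% of all rows, and 7 between preps 4 and 2, beside 41.0%. The rises over GFP that chose the genes were each taken within a prep.

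Other genes of the hormone pathways were taken from lists chosen with results of these data known, and the difference between MYB131 and NAC29 was not tested for any of them. Around acco20, 24 other ethylene genes were tested, and limma called 2 higher in MYB131, 2 higher in NAC29 and 0 lower in either. Their median log2 change was 0.18 in MYB131 and 0.01 in NAC29, beside −0.02 and −0.01 over all rows. The factor gene EREB85 was called in both. It stood at 10.3 and 3.75 RPKM in MYB131 against 0 and 0.101 RPKM, a rise of 3.63 ± 0.28, and at 0.492 and 1.08 RPKM in NAC29, where both GFP libraries were at 0. The NAC29 call, at an adjusted p of 0.011 in limma, was lost without GFP replicate 1, GFP replicate 3 or NAC29 replicate 3 (adjusted p 0.0781 to 0.279) and in limma-voom (0.114).

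The other ethylene-responsive factors differed in where they were called. EREB20 was called in MYB131, at 2.82 and 1.35 RPKM against 0 and 0.167 RPKM. EREB26 was called in NAC29 (1.68 ± 0.32, at 2.83 and 3.49 RPKM against 0.400 and 0.938 RPKM), and stood at 1.08 ± 0.32 in MYB131 without a call. Without NAC29 replicate 3 or GFP replicate 1 the call of EREB26 was lost (1.55 and 1.34). Around JAZ9, limma called 0 of the 39 other jasmonate genes in MYB131 or NAC29, with 3 at an unadjusted p below 0.05 in each, and limma-voom called 0 in MYB131 and 1 in NAC29. Their median log2 change was 0.01 in MYB131 and −0.08 in NAC29.

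Wall and lignin genes were read against the 2.21% of all rows called higher in MYB131 and the 0.868% in NAC29. Of 16 phenylpropanoid and lignin rows, limma called 4 higher in MYB131 (median of the list 0.26) and 0 in NAC29 (median −0.14), where 3 had an unadjusted p below 0.05 and limma-voom called 0. They were PAL1, for the entry enzyme of the pathway, with 518 and 313 RPKM against 122 and 102 RPKM (1.85 ± 0.27), and 3 rows sharing the alias Laccase-13, for a lignin-polymerising oxidase. Of 12 cellulose and xylan rows, 3 were higher in MYB131 (median 0.24), the cellulose synthase genes CesA-8 (1.71 ± 0.22) and CesA-7 (1.03 ± 0.23) and the xylan arabinosyltransferase gene XAT2 (1.39 ± 0.20). CesA-7 was also the 1 called in NAC29 (1.01 ± 0.23, list median 0.29), at 5.51 and 5.198 RPKM against 2.49 and 2.31 RPKM. Its call was lost in MYB131 without MYB131 replicate 2 or GFP replicate 4 (1.02 and 0.72), in NAC29 without any 1 of the 4 libraries (0.97 to 1.06), and in both with the other regulators as reference (0.47 and 0.84). Of the 3 wall regulators listed, myb31 rose by 3.08 ± 0.32 and ANAC010, a NAC gene, by 2.19 ± 0.33 in MYB131. In NAC29 limma and limma-voom called 0 of these 3, and 1, myb31 at 1.08 ± 0.32, had an unadjusted p below 0.05.

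Of 12 starch genes limma called 3 higher in NAC29 (list median 0.13), beside 0.868% of all rows. They were du1 (2.12 ± 0.26) and ss1 (1.64 ± 0.27), for starch synthases, and AGP2 (1.76 ± 0.35), for a subunit of the enzyme that makes ADP-glucose. AGP2 lost its call without NAC29 replicate 1, NAC29 replicate 3 or GFP replicate 1 (1.56 to 1.77). In MYB131 limma and limma-voom called 0 of the 12 (median 0.13), and 1 had an unadjusted p below 0.05. Of 33 abscisic acid genes, the phosphatase gene PP2C30 was the 1 called in NAC29 (1.08 ± 0.27), and without any 1 of the 4 libraries it was not (0.91 to 1.25). Limma called 0 of these 33 in MYB131, where 5 had an unadjusted p below 0.05 and limma-voom called 1.

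Among 33 other MYB genes, myb2 (5.44 ± 0.28), Myb14 (2.08 ± 0.26) and MYB93 (1.21 and 1.03 RPKM against 0 in both GFP libraries) were called higher in MYB131. In NAC29 limma and limma-voom called 0 of the 33, and 4 had an unadjusted p below 0.05. The 71 rows in the lists of other NAC genes, cell death, transport, glycosyl transfer and P450, heat shock, pathogenesis-related, and small RNA and PHAS genes had 0 calls for either regulator in limma and in limma-voom. At an unadjusted p below 0.05 there were 2 of them in MYB131 and 7 in NAC29. Over all 15 lists limma and limma-voom called 0 rows lower, with 9 rows lower in MYB131 and 12 in NAC29 at an unadjusted p below 0.05. Of all 28122 tested rows limma called only 40 lower in MYB131 and 26 in NAC29, so the 0 says little about the lists. The share of all rows lower at an unadjusted p below 0.05 is not given here.

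Levels of leaf cell markers were set beside these rises, giving the lower library of each pair first. Summed over 7 mesophyll markers, MYB131 libraries held 369 and 560 RPKM and their GFP controls 158 and 264 RPKM, while NAC29 libraries held 104 and 143 RPKM and theirs 123 and 130 RPKM. The MYB131 difference lay mainly in ppdk1, the 1 of 5 tested that was called, in preps 2 and 4 at 519 and 336 RPKM against 202 and 125 RPKM. Its rise of 1.39 ± 0.36 was no longer called if MYB131 replicate 2 or GFP replicate 4 was left out (1.08 and 1.05). Those values set a single prep against both preps, so prep differences enter them. Summed epidermal markers held 58.4 and 66.8 RPKM in MYB131 against 44.4 and 46.5 RPKM, with the wax gene gl8b the 1 of 5 called (1.62 ± 0.23), and 44.9 and 50.8 RPKM in NAC29 against 49.1 and 60.5 RPKM. Vascular and xylem markers summed to 749 and 958 RPKM in MYB131 against 807 and 816 RPKM, and to 562 and 649 RPKM in NAC29 against 609 and 632 RPKM. Laccase-7, at a mean of 930 RPKM over the 50 libraries, made up most of these sums. Over the 6 rows tested, the median log2 change was 1.08 in MYB131 and 0.14 in NAC29. The 3 of these 6 tested that were called in MYB131 were the Laccase-13 rows. Bundle sheath markers, 0 of 4 called by limma, by limma-voom or at an unadjusted p below 0.05, summed to 337 and 526 RPKM in MYB131 against 296 and 556 RPKM, and to 328 and 495 RPKM in NAC29 against 246 and 514 RPKM. Most of the bundle sheath sums was pck2, at a mean of 479.5 RPKM over the 50 libraries. The part of these cell types in the rises of the 23 genes was not tested.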

How the data were processed

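The authors deposited 1 table of RPKM for 30213 rows. The submitters' processing notes name the genome build B73 RefGen_v3, the aligner HISAT2 2.1.0, the counter featureCounts (Subread 1.6.3) and edgeR 3.20.9. The handling of reads that fit several paralogs, and of strand, is not given in the sources used here. From the deposited RPKM, the members were found by the rule, on log2(RPKM + 0.5), which understates changes of low genes. The members and gene lists were chosen with earlier results of these data known.

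limma 3.58.1 (R 4.3.3) was fitted with a variance trend over the 28122 rows that reached 1 RPKM in 2 or more libraries, all 23 members included through the libraries that chose them. There were 25 groups over 50 libraries for GFP comparisons, and the 42 unused libraries for the others. Fits against GFP or against other regulators held no prep term. Leaving 1 library out of them therefore set a single prep against both preps, so prep differences enter those values. Errors are SE, n = 2 libraries from separate preps per regulator. Whole reads were recovered for all 30213 rows, by the smallest scale that put every value of a row within 0.05 reads of a whole number. That closeness is the criterion of the recovery and no check of it, and a factor common to all reads of a row would not be seen. The recovered reads gave the depths and a limma-voom alternative. Reads without molecular identifiers are not independent molecules.

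Names came from RefSeq's Zm-B73-REFERENCE-NAM-5.0 table, which matched 14595 rows and named 2004. That build is not the authors', so no positions are given. Genes are named where RefSeq names them, for the 10 highest lowest-of-4 rises, for the 3 rows on either side of the threshold, for calls in unused libraries, and for up to 4 called rows per list.

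Replicate numbers are prep numbers, so the preps pair the libraries by their labels. As a check, the prep difference of a group was correlated across rows with that of another. The median was 0.131 over 66 pairs of groups in preps 1 and 3, with 36 over 0.1, and 0.253 over 78 pairs in preps 2 and 4, with 66 over 0.1.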

Additional observations from a re-analysis of the deposited data

How the results depend on the processing

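The set of 23 became 10 genes with a rise of at least 1.5, 42 with 0.8, and 11 with at least 5 RPKM, and 28 to 52 with any 1 of the 4 chosen libraries left out. It kept all 23 after median-ratio rescaling. The 621 rows called higher in MYB131 became 383 to 691 with a library left out (383 without MYB131 replicate 2), and the 244 in NAC29 became 89 to 166 (89 without NAC29 replicate 3). With prep as a replicate block they were 706 and 351, the rows called in the unused regulators went from 468 to 568, and the block changed no call of a named gene. Limma-voom called 895 rows in the unused regulators and 6 of the 23 genes in place of 3; without the EREB69 libraries these were 110 rows and 1 gene. A filter on the 42 unused libraries alone, chosen after seeing the data, gave 457 rows and 3 genes. With a library left out they were 263 to 490 rows and 1 to 4 genes. The 43 rows called between preps 3 and 1 were 99 with a pseudocount of 0.1, 28 with a pseudocount of 1 and 122 in limma-voom. The 238 between preps 4 and 2 were 417 with a pseudocount of 0.1 and 464 in limma-voom. Members called between preps stayed at 0 in these alternatives. Of 552 alternative values of the 23 genes against GFP, 474 kept their call, 74 lost it, 3 gained it and 1 reversed: GRMZM2G076204 in NAC29, at −0.12 with the other regulators as reference. The causes were not tested. Depth limits the low members, whose GFP levels rest on a few reads, and 2 libraries per regulator limit every test.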

Other observations

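The single row that fell by at least 1 in all 4 chosen libraries, AC212245.3_FG003, stood at 0.363 and 0.969 RPKM in MYB131 cells of preps 2 and 4, against 3.29 and 4.13 RPKM in GFP. In NAC29 cells of preps 1 and 3 it stood at 0.445 and 0.389 RPKM, against 2.67 and 2.51 RPKM. Its levels in the 42 unused libraries ran from 0 to 6.39 RPKM with a median of 1.26 RPKM, so the GFP libraries lay above that median and the chosen libraries below it.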
